A study of Rattus norvegicus with 6 samples.

Results

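The 9 genes described here, Glul, Axin2, Lgr5, Rnf43, Znrf3, Tbx3, Oat, Rhbg and Rgn, are genes of the hepatocytes around the central vein or of the Wnt pathway that is active there, and were taken by name. Of the 30957 genes in the deposited table, 8 carried one of these names, and 7 of the 8 had enough counts to be tested in rat liver after faecal microbiota transplantation (FMT). Znrf3 had no row under that name and has no value here, and Lgr5 was near the limit of detection. None of the 7 genes tested met the criteria of the study in livers of rats that had received microbiota from androgen-treated donors. Of all genes tested, 4.95% did. Axin2 lay lower in all 3 livers of those rats than in every control liver, and groups lay apart for 10.1% of all genes tested. Tbx3 had the largest difference of the 7, 1.55-fold, with overlapping groups. Rspo3, which encodes an enhancer of Wnt signalling, met the criteria at a lower level (adjusted p = 0.957 with edgeR's quasi-likelihood test). That call was lost with DESeq2, with a replicate block and in 4 of the 6 comparisons that left out 1 liver. The summed levels of mesothelial and of bile duct markers were lower in the same livers, with Krt19 counted in both. Without Krt19, the summed level of the bile duct markers overlapped between the groups.

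The recipients were female SD rats that arrived at 3 weeks of age, and both groups were given 3 courses of an antibiotic cocktail in drinking water to make them pseudo germ-free. The t-DHEA rats then received pooled faeces of donors injected with dehydroepiandrosterone (DHEA), an androgen precursor used to induce a phenotype like polycystic ovary syndrome, and the t-PBS rats received pooled faeces of donors injected with phosphate-buffered saline (PBS), by daily gavage for 14 days. Livers of 3 of the 6 recipients in each group were sequenced as mRNA. The comparison of t-DHEA with t-PBS addressed what a DHEA-shaped gut microbiota does to hepatic gene expression. As the faeces were pooled, the rats of a group were not given transplants from separate donors.

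The liver lobule is zoned along the blood flow from the portal vein to the central vein, and hepatocytes of the pericentral and periportal ends run different metabolic programmes. Endothelial cells of the central vein secrete Wnt ligands and R-spondin 3, which act on frizzled receptors with LRP coreceptors and on LGR receptors; β-catenin then enters the nucleus and, with TCF/LEF factors, turns on pericentral genes. Axin2, Lgr5, Rnf43, Znrf3 and Tbx3 are widely used Wnt target genes, and Glul, Oat, Rhbg and Rgn are enriched in the pericentral hepatocytes, with Glul, Oat and Rhbg serving the capture of ammonia as glutamine.

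Total counts on genes ran from 12348511 to 14316886 per liver. At this depth a gene with 0 counts may have had up to 3, that is 0.21 to 0.243 CPM (counts scaled by the total of their library) depending on the liver; these floors cover counting error only. The study called a differentially expressed gene (DEG) at p below 0.05 and fold-change above 1.2. By these criteria, with edgeR's quasi-likelihood test on the counts, 604 of the 12210 genes tested were DEGs, or 4.95%, of which 240 were upregulated (1.97%) and 364 downregulated (2.98%) in t-DHEA. For 10.1% of the 12210 genes, all livers of 1 group lay above all livers of the other. No gene had a Benjamini-Hochberg adjusted p below 0.05 with edgeR's quasi-likelihood test, where 634 had an unadjusted p below 0.05; DESeq2 called 24 genes at an adjusted p below 0.05. The 8 hepatocyte markers contained no DEG, with Hnf4a at a log2 fold change of 0.11 and Tf at 0.10. The 6 Kupffer cell markers contained none, with Vsig4 at 0.21 and Cd68 at -0.23. Of these 6, 5 had a positive and 1 a negative log2 fold change, with a median of 0.20. Because a whole piece of liver was measured, fewer cells of a type and less RNA per cell cannot be told apart.

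Levels of different genes can be compared only per length, as in FPKM, in which counts are divided by gene length and library total and which was therefore used to order the genes. Rgn, which encodes the calcium-binding protein regucalcin, was the most abundant of them, with a mean of 300 FPKM ± 31.1 (SD, n = 6 livers). Oat followed at 170 FPKM ± 54.2 and Glul at 164 FPKM ± 22.9, and their ranges over the 6 livers overlapped. A wide gap separated these enzymes from the regulators of the pathway, Rnf43 at 5.37 FPKM ± 1.02, Tbx3 at 3.36 FPKM ± 1.29 and Axin2 at 3.22 FPKM ± 0.487. Rnf43 and Tbx3 overlapped over the livers, as did Tbx3 and Axin2. Rhbg lay lower, at 1.5 FPKM ± 0.585, and Lgr5 was lowest at 0.0717 FPKM ± 0.0472. The order of the means placed Rgn at rank 188, Oat at rank 337, Glul at rank 349 and Lgr5 at rank 14763 of the 17187 genes with a count in any liver.

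**Figure D1:**
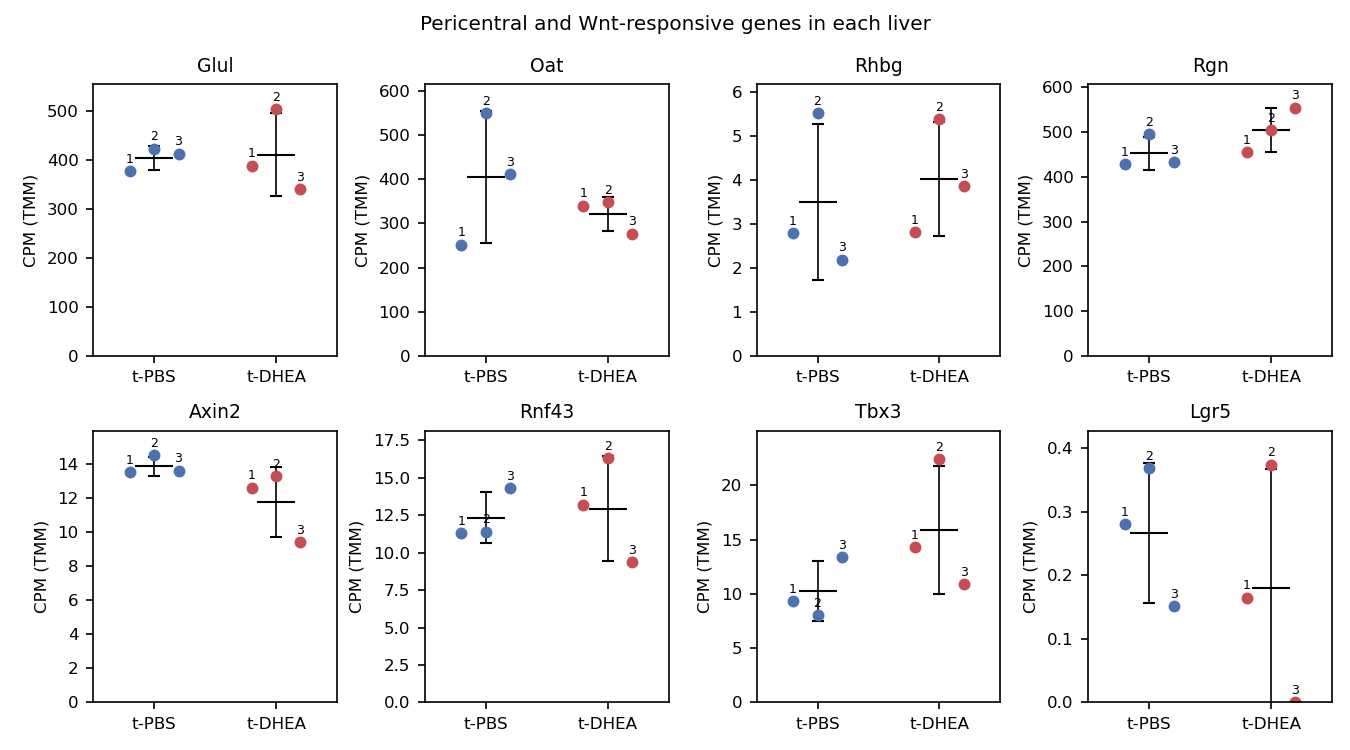
CPM scaled by trimmed mean of M-values (TMM, vertical axis from 0) of the 8 genes with a row, in the 3 t-PBS (blue) and the 3 t-DHEA livers (red), numbered by rat; black bars are the group mean and SD, drawn from 0 upwards. The groups are apart for Axin2, at 13.5 to 14.5 against 9.42 to 13.3 CPM, and overlap in every other panel.

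Axin2 (chromosome 10, 97212432 to 97239642, Rnor_6.0) encodes a scaffold of the β-catenin destruction complex and is itself switched on by Wnt, which makes it a common measure of pathway activity. Its level, given as for the other genes in TMM-scaled CPM, was 13.5, 14.5 and 13.6 CPM in t-PBS rats 1 to 3 and 12.6, 13.3 and 9.42 CPM in t-DHEA rats 1 to 3. Every t-DHEA liver was thus below every t-PBS liver, although t-DHEA rat 2 was close to the lowest t-PBS liver. The log2 fold change was -0.24 (SE 0.15; adjusted p = 0.986 with edgeR's quasi-likelihood test), and Axin2 was not a DEG. The fold-change had a 95% interval from 0.673 to 1.07. An exact permutation test of the 3 against 3 livers, two-sided, gave p = 0.1, the smallest it can give. The difference leaned on t-DHEA rat 3, without which the log2 fold change was -0.096. Axin2 was the only one of the 7 genes tested whose groups did not overlap, against the 10.1% of all genes above.

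The promoter sequences of Axin2 and Glul are shown because they differ in a letter string that TCF/LEF factors recognise. Of the 9 genes, 6 had an entry in the RefSeq promoter table (GRCr8), and the 250 bases before each start were searched on both strands for CTTTGA, whose reverse complement is TCAAAG. This string occurred in 13.9% of 33469 promoters of that length, and at least 2 times in 1.4%. The Axin2 window (chr10:94398535-94398784, plus strand) held it 2 times, beginning at -232 and -132 from the start. Glul had 2 starts in the table, of which the upstream one (chr13:68519250-68519499, plus strand) held 1 match on the other strand at -229 and the downstream one (chr13:68575816-68576065, plus strand) none. The Glul row that was counted, 71331052 to 71340229 in Rnor_6.0, is shorter than the stretch between these 2 starts. Use of the upstream start in these livers was not tested. The windows of Oat, Rgn, Rhbg and Rnf43 held no match; Lgr5, Tbx3 and Znrf3 were not analysed here for promoters. A match is a string of letters and not a measured binding site. The windows are printed 5′ to 3′ with the matches in capitals.
Axin2: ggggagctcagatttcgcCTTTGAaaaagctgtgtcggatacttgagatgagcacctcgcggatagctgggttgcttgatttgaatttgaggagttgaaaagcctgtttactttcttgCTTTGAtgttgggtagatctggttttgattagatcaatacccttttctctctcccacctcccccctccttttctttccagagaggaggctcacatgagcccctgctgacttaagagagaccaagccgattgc
Glul, upstream start: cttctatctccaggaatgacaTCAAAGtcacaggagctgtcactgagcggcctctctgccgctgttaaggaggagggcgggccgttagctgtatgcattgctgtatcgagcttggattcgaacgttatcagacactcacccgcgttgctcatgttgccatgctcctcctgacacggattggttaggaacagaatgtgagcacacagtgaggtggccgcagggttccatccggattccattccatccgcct
Glul, downstream start: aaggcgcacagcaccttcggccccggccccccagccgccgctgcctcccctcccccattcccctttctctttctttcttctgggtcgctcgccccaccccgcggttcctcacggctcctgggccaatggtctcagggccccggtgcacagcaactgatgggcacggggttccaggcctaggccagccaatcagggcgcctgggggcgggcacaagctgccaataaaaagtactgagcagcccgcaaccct

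Rnf43 (chromosome 10, 74959285 to 75028951) encodes a ubiquitin ligase that removes frizzled receptors from the cell surface and so restrains Wnt signalling; Znrf3 is its closest relative. Rnf43 was at 11.3, 11.4 and 14.3 CPM in the t-PBS and at 13.2, 16.3 and 9.35 CPM in the t-DHEA livers. The highest and the lowest liver were both t-DHEA, and the groups overlapped. Rnf43 had a log2 fold change of 0.07 (SE 0.20; adjusted p = 0.99 with edgeR's quasi-likelihood test), with a 95% interval of the fold-change from 0.766 to 1.45.

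Lgr5 (chromosome 7, 58448277 to 58587787) encodes an R-spondin receptor and marks a subset of pericentral hepatocytes. It had 4, 5 and 2 counts in the t-PBS and 2, 5 and 0 counts in the t-DHEA livers. These counts lie at or near the floor of 3 counts and Lgr5 did not pass the filter for low counts. The exact permutation test, two-sided, gave p = 0.7. A difference in Lgr5 was not detectable at this depth.

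Tbx3 (chromosome 12, 42480560 to 42492526) encodes a T-box transcription factor downstream of β-catenin in liver. Its levels were 9.32, 8.04 and 13.4 CPM in the t-PBS and 14.3, 22.4 and 10.9 CPM in the t-DHEA livers. The t-DHEA rat 2 liver stood highest, whereas t-DHEA rat 3 fell inside the t-PBS range. Tbx3 had the largest difference of the 7 genes, with a log2 fold change of 0.63 (SE 0.28), a fold-change of 1.55 and a 95% interval from -0.001 to 1.26 on the log2 scale. Its unadjusted p = 0.0502 in edgeR's quasi-likelihood test just missed the first criterion, its adjusted p = 0.957, and an exact permutation test, two-sided, gave p = 0.2. Tbx3 met the criteria with DESeq2. Single livers moved it: with t-DHEA rat 2 left out its log2 fold change was 0.30, and with t-PBS rat 3 left out it was 0.87 and met the criteria.

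Glul (chromosome 13, 71331052 to 71340229) encodes glutamine synthetase, which joins ammonia to glutamate in the hepatocytes next to the central vein. It was at 377, 423 and 413 CPM in the t-PBS and at 388, 504 and 340 CPM in the t-DHEA livers. The t-DHEA livers bracketed the t-PBS livers on both sides. Between the groups it differed by 0.023 on the log2 scale (SE 0.15; adjusted p = 0.993 with edgeR's quasi-likelihood test), and its sign depended on how the libraries were scaled. The 95% interval of the fold-change ran from 0.805 to 1.28.

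Oat (chromosome 1, 204562289 to 204582070) encodes ornithine aminotransferase, a mitochondrial enzyme that supplies glutamate in pericentral hepatocytes. Its level was 252, 550 and 412 CPM in the t-PBS and 340, 348 and 277 CPM in the t-DHEA livers. The t-PBS livers spread on both sides of all t-DHEA livers. Oat had a log2 fold change of -0.33 (SE 0.24; adjusted p = 0.986 with edgeR's quasi-likelihood test). The t-PBS livers set this value, as it was -0.58 and met the criteria with t-PBS rat 1 left out, and -0.044 with t-PBS rat 2 left out.

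Rhbg (chromosome 2, 187610092 to 187623207) encodes an ammonium transporter of the Rh family in the hepatocyte membrane. It was at 2.8, 5.53 and 2.19 CPM in the t-PBS and 2.81, 5.39 and 3.86 CPM in the t-DHEA livers. The groups overlapped nearly in full, with rat 2 the highest of each. Rhbg had a log2 fold change of 0.20 (SE 0.37; adjusted p = 0.99 with edgeR's quasi-likelihood test), and the 95% interval of the fold-change, from 0.642 to 2.06, was the widest of the 7 genes.

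Rgn (chromosome X, 1833492 to 1848904) was at 428, 495 and 433 CPM in the t-PBS and 455, 504 and 554 CPM in the t-DHEA livers. The 2 highest livers were t-DHEA, and t-DHEA rat 1 lay within the t-PBS range. Its log2 fold change was 0.16 (SE 0.11; adjusted p = 0.986 with edgeR's quasi-likelihood test), with an interval of the fold-change from 0.933 to 1.34.

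Of the 7 genes tested, 0 met the criteria against 4.95% of all genes, 5 had a positive and 2 a negative log2 fold change, and their median log2 fold change was 0.07 against 0.001 over all genes. With so few genes a share of 0 is not apart from the background.

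**Figure D2:**
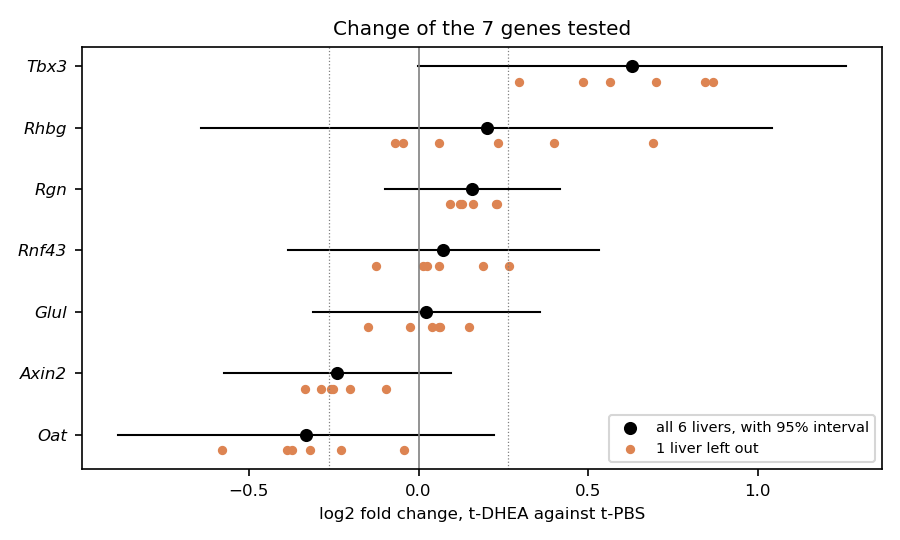
Log2 fold change of t-DHEA against t-PBS (horizontal axis) of the 7 genes tested; black points and lines are the value with all 6 livers and its 95% interval, orange points the values with 1 liver left out, and dotted lines a fold-change of 1.2 in either direction. Every interval includes 0, Tbx3 only just, at -0.001 to 1.26, and the orange points of Oat range from -0.58 to -0.044.

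For each of the 7 genes, the departure of a liver was taken as its log2 CPM (prior count 2) minus the mean of the 6 livers. In t-DHEA rat 2, 6 of the 7 genes were above their mean, with a median departure of 0.32, and Glul, Rnf43 and Tbx3 had their highest value there. In t-DHEA rat 3, 5 of the 7 were below their mean, with a median departure of -0.25, and Glul, Axin2 and Rnf43 had their lowest value there, whereas Rgn had its highest. In t-PBS rat 1, 6 of the 7 were below their mean, with a median departure of -0.15. The other 3 livers each had 5 of the 7 genes on one side of their mean, above it in t-PBS rats 2 and 3 and below it in t-DHEA rat 1. Axin2, Oat and Rhbg were highest in t-PBS rat 2, the liver in which Tbx3 was lowest.

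The spread within a group differed between genes. The coefficient of variation (CV) of Glul was 6.0% in t-PBS and 20.6% in t-DHEA livers, that of Axin2 4.04% and 17.5%, and that of Rnf43 13.6% and 26.9%. For Oat it was instead wider in t-PBS, at 36.8% against 12.1%, and for Rhbg at 50.7% against 32.3%. Rgn was even in both groups, with a CV of 8.23% and 9.74%. These CVs rest on 3 livers each and their difference was not tested.

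**Figure D3:**
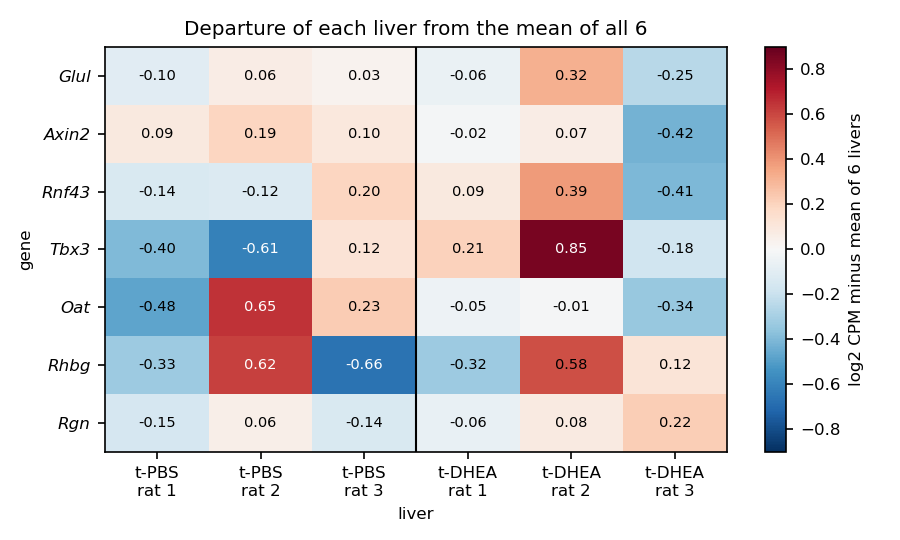
Departure of each liver (columns) from the mean of the 6 livers in log2 CPM, printed in each cell and coloured from blue (below) to red (above), for the 7 genes tested (rows); the black line parts the groups. In t-DHEA rat 2 the cell of Tbx3 is the highest, 0.85, and in t-DHEA rat 3 Glul, Axin2 and Rnf43 are at -0.25, -0.42 and -0.41.

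Among 11779 other genes tested with a mean of at least 1 CPM, those most like Glul across the 6 livers were Rita1, Pgpep1 and Gramd4, whose centred log2 CPM differed from that of Glul by a root mean square of 0.025, 0.048 and 0.051. For Axin2 they were Ccdc127, Fam65a and Dnmbp, at 0.049, 0.059 and 0.061. These are descriptions over 6 livers.

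Of the inputs of the pathway, Rspo3 was downregulated, and Rspo1 was lower in every t-DHEA liver without being a DEG. Rspo3, encoding the R-spondin of the central vein endothelium, had 110, 92 and 101 counts in the t-PBS and 54, 83 and 73 counts in the t-DHEA livers, or 7.71, 6.78 and 7.62 against 4.46, 6.21 and 5.64 CPM. The groups did not overlap. Its difference was a log2 fold change of -0.44 (SE 0.17; unadjusted p = 0.0285, adjusted p = 0.957 with edgeR's quasi-likelihood test; exact permutation test, two-sided, p = 0.1, the smallest it can give). Rspo3 did not meet the criteria with DESeq2, nor when t-PBS rat 1 (-0.40), t-PBS rat 3 (-0.41), t-DHEA rat 1 (-0.32) or t-DHEA rat 3 (-0.46) was left out. Rspo1 had 15 counts in each t-PBS liver and 6, 8 and 11 in the t-DHEA livers, a log2 fold change of -0.75 (SE 0.35; adjusted p = 0.969 with edgeR's quasi-likelihood test), and was not a DEG. It met the criteria in all 4 limma fits on log2 FPKM (-0.27 to -0.82) and with t-DHEA rat 3 left out (-0.98).

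The list of Wnt ligands, R-spondins and their secretion factors held 25 genes, of which 6 were tested. Among the 6, 0 were upregulated and 1, Rspo3, was downregulated, against 1.97% and 2.98% of all genes tested. The 6 genes had a median log2 fold change of -0.22. Another 10 had 0 counts in all livers. The ligands of the central vein, Wnt2 and Wnt9b, were scarce, and Wnt9b had 26 counts summed over either group, while Wnt2 had 28 and 28. Below the filter for low counts, Wnt5a had 9, 18 and 15 counts in t-PBS and 6, 3 and 0 in t-DHEA livers. Wnt7a had 3, 7 and 6 counts against 1, 0 and 0, and the transcription factor gene Lef1 had 3, 3 and 8 against 0, 2 and 0. In each of the 3 genes all t-DHEA livers were lower in CPM (exact permutation test, two-sided, p = 0.1, the smallest it can give). The Wnt target gene Ascl2, also below the filter, went the other way, with 2, 2 and 2 counts in t-PBS and 3, 7 and 3 in t-DHEA livers. All t-DHEA livers were higher in Ascl2, with the same permutation p. Many of these counts are at or below the floor. The 10.1% of genes with groups apart is a share of genes that passed the filter, and gives no background for genes below it. Rspo1, Wnt2, Wnt9b, Wnt5a, Wnt7a, Lef1 and Ascl2 were chosen for mention after their values were seen.

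Markers of other cells moved with the same comparison. Over all genes tested, 1.97% were upregulated and 2.98% downregulated. Of the 5 mesothelial markers, which mark the liver capsule, 4 were tested, 3 were downregulated (Msln, Upk3b and Krt19) and none was upregulated. Their summed level was 25 to 30.3 CPM in t-PBS and 2.84 to 13.4 CPM in t-DHEA livers, and Wt1 and Lrrn4, named after their values were seen, had 0 counts in t-DHEA rat 2. Of the 6 bile duct markers, 5 were tested and 2, Krt7 and again Krt19, were downregulated, while 1 had a positive log2 fold change, 0.365. Their summed level was 18.9 to 23.6 against 9.5 to 17.1 CPM, and Krt7 had 0 counts in t-DHEA rat 2. Of the 7 stellate cell markers only Col1a1 was downregulated, with a summed level of 179 to 225 against 165 to 191 CPM and no marker at 0 counts. Among the 14 markers of central vein and sinusoidal endothelium, 12 were tested and Rspo3 itself was the only DEG, with a summed level of 282 to 417 against 359 to 379 CPM. Of the 5 red cell markers, 3 were upregulated (Hba1, Hbb and Hbb-b1), with a summed level of 185 to 284 against 304 to 590 CPM. Hbb had overlapping groups and met the criteria in 3 of the 6 comparisons that left out 1 liver. It did not meet them with DESeq2, with library totals or in any limma fit on log2 FPKM. The part of these cells in the lower Rspo3, Rspo1 and Wnt counts was not tested.

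**Figure D4:**
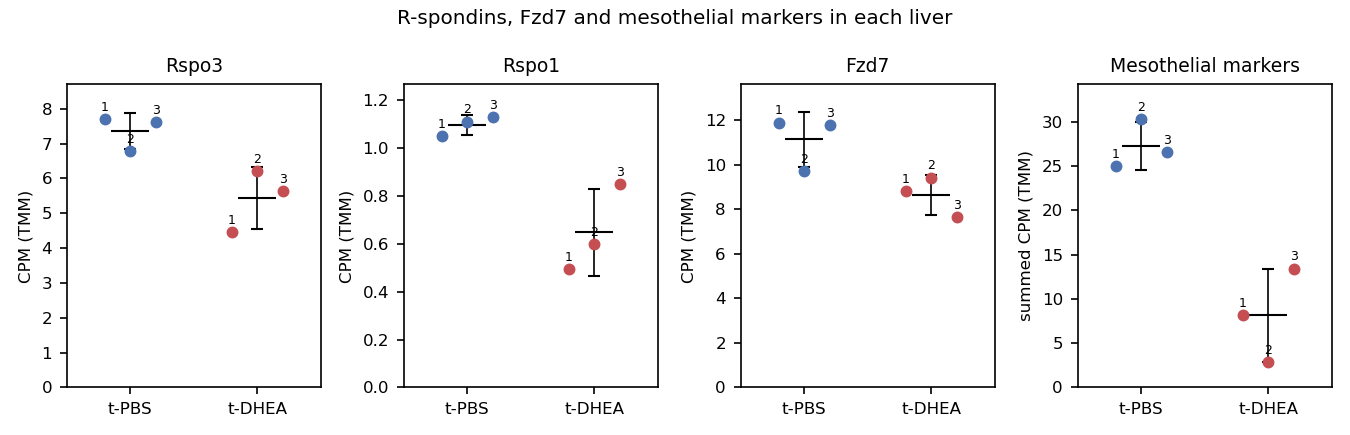
TMM-scaled CPM (vertical axis from 0) of Rspo3, Rspo1 and Fzd7 and the summed CPM of the 5 mesothelial markers in the 3 t-PBS (blue) and 3 t-DHEA livers (red), numbered by rat, with group mean and SD in black. All t-DHEA livers lie below all t-PBS livers in the 4 panels, for Rspo3 at 4.46 to 6.21 against 6.78 to 7.71 CPM.

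Among 17 receptors and coreceptors, 12 were tested and 1 met the criteria, against 4.95% of all genes tested. Fzd7, a frizzled receptor, was at 11.9, 9.73 and 11.8 CPM in the t-PBS and 8.83, 9.43 and 7.65 CPM in the t-DHEA livers. It was downregulated, with a log2 fold change of -0.37 (SE 0.15; adjusted p = 0.957 with edgeR's quasi-likelihood test). Fzd7 did not meet the criteria with DESeq2, nor when t-PBS rat 1 (-0.32), t-PBS rat 3 (-0.33), t-DHEA rat 1 (-0.38) or t-DHEA rat 3 (-0.28) was left out. The median log2 fold change of the receptor list was 0.07. The coreceptor gene Lrp6, also named after its values were seen, had a log2 fold change of 0.34 with overlapping groups. Lrp6 was not a DEG, but it met the criteria with DESeq2 (0.34), with no filter on low counts (0.34), with the replicate number as a block (0.33) and with t-DHEA rat 3 left out (0.49).

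The remaining steps of the pathway held no DEG among the genes tested. Of the extracellular inhibitors, 7 of 15 were tested, and the lowest p values belonged to Apcdd1 (log2 fold change 0.93, SE 0.51) and Sfrp1 (-1.20, SE 0.69), 2 secreted or membrane-bound antagonists. Sfrp1 was at -0.22 with t-PBS rat 2 left out and at -1.66, within the criteria, with t-PBS rat 3 left out. Apcdd1 ranged from 0.60 to 1.45 with 1 liver left out, and met the criteria when that liver was t-DHEA rat 3 (1.27) or t-PBS rat 3 (1.45). In the destruction complex with the Dishevelled proteins, 12 of 15 were tested, and the log2 fold changes lay between -0.21 and 0.20. Axin1, Dvl2 and Tnks2 had no row under those names and have no value here. Btrc, a ubiquitin ligase subunit that marks β-catenin for degradation, was at 0.20 and the kinase gene Gsk3a at -0.19. Of the TCF/LEF factors and cofactors, 8 of 10 were tested, with Bcl9l at -0.14 and Ctnnbip1 at -0.22. Of 12 further Wnt target genes, 7 were tested and had a median log2 fold change of 0.015. Cd44, which encodes a hyaluronan receptor, was at -0.52, and Notum, which encodes a secreted Wnt deacylase, at -0.20.

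Beyond Glul, Oat, Rhbg and Rgn, 17 other pericentral genes were tested. Among the 17, 2 were upregulated and 0 downregulated, against 1.97% and 2.98% of all genes tested, and 15 did not meet the criteria. The 17 genes had a median log2 fold change of 0.06. Their summed level was 6241 to 7358 CPM in t-PBS and 7397 to 8039 CPM in t-DHEA livers, without overlap. Their mean log2 CPM did overlap, at 6.547 to 6.946 in t-PBS and 6.884 to 6.963 in t-DHEA livers. The 10.1% of genes with groups apart is a share of single genes and gives no background for a sum. Cyp2e1, a pericentral cytochrome P450 also named after its values were seen, held 1874 to 2440 CPM of the sum in t-PBS and 2252 to 3120 CPM in t-DHEA livers. Cyp7a1, the rate-limiting enzyme of bile acid synthesis, was at 108, 54.1 and 128 CPM in the t-PBS and 503, 131 and 260 CPM in the t-DHEA livers, a log2 fold change of 1.62 (SE 0.46; adjusted p = 0.805 with edgeR's quasi-likelihood test) that was 1.01 and still within the criteria with t-DHEA rat 1 left out. Slc13a3, a dicarboxylate transporter, was at 14.7, 17.8 and 29.4 against 24.9, 46.5 and 32.4 CPM, a log2 fold change of 0.75 (SE 0.29; adjusted p = 0.957 in edgeR's quasi-likelihood test) with overlapping groups, and met the criteria in 3 of the 6 comparisons that left out 1 liver; it was outside them with t-DHEA rat 2 (0.48), t-PBS rat 1 (0.55) or t-PBS rat 2 (0.66) left out. Cyp7a1 is also under circadian control. Of the 9 genes in phase with the clock gene Dbp, 4 were upregulated (Dbp, Tef, Per2 and Per3). The 9 genes had a summed level of 253 to 366 CPM in t-PBS and 301 to 493 CPM in t-DHEA livers. The groups overlapped for Dbp and Tef. Dbp met the criteria in 2 of the 6 comparisons that left out 1 liver, and Tef, Per2 and Per3 in all 6. Of the 4 genes in the opposite phase, Arntl was downregulated, with a summed level of 112 to 153 against 86 to 128 CPM; the part of the clock in the rise of Cyp7a1 was not tested.

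At the opposite zone, 18 periportal genes were tested. Among the 18, 2 were upregulated and 0 downregulated, against 1.97% and 2.98% of all genes tested, and 16 did not meet the criteria. The 18 genes had a median log2 fold change of 0.05. Tat, tyrosine aminotransferase, was at 481, 561 and 621 CPM in the t-PBS and 630, 1044 and 992 CPM in the t-DHEA livers, a log2 fold change of 0.68 (SE 0.19; adjusted p = 0.805 in edgeR's quasi-likelihood test). Sds, serine dehydratase, was at 17.9, 15.6 and 17.1 against 40.2, 10.5 and 110 CPM. Its log2 fold change of 1.67 (SE 0.64; adjusted p = 0.957 in edgeR's quasi-likelihood test) was 0.59 and outside the criteria with t-DHEA rat 3 left out. Sds was also outside the criteria with each t-PBS rat left out (1.62 to 1.71), with DESeq2 (1.67), with the replicate block (1.17) and in every limma fit on log2 FPKM (1.02 to 1.06), and met them in 2 of the 6 comparisons that left out 1 liver.

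The balance of the zones was taken per liver as the mean log2 CPM of the 7 genes tested minus that of the 18 periportal genes. It was -2.80, -2.43 and -2.65 in the t-PBS and -2.68, -2.16 and -3.15 in the t-DHEA livers. The means were -2.63 ± 0.18 and -2.66 ± 0.50 (SD, n = 3 each), a difference of -0.037 that was smaller than either SD. Both its sign and its size turned on single livers, as the difference was -0.29 with t-DHEA rat 2 left out, 0.21 with t-DHEA rat 3 left out and 0.06 with t-PBS rat 2 left out. With the 17 other pericentral genes in place of the 7, it was 0.063. The liver most to the pericentral side, rat 2, and the one most to the periportal side, rat 3, were both t-DHEA.

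**Figure D5:**
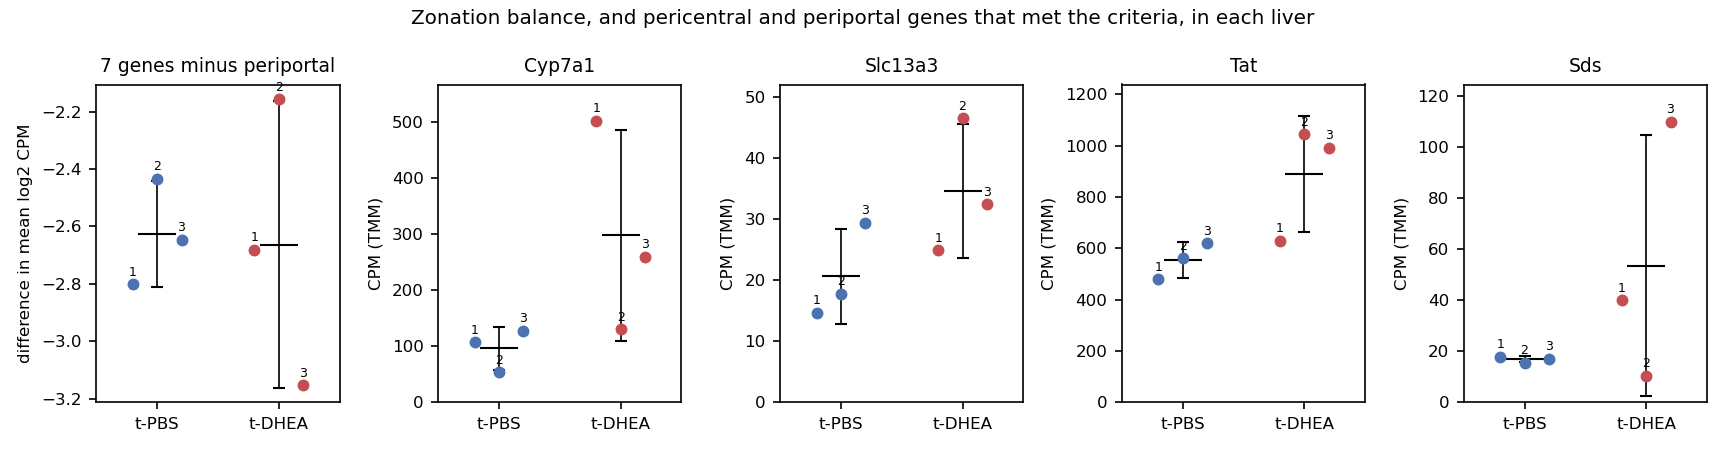
The zonation balance of each liver (left panel, difference in mean log2 CPM, axis not from 0) and TMM-scaled CPM (axis from 0) of the pericentral genes Cyp7a1 and Slc13a3 and the periportal genes Tat and Sds, in t-PBS (blue) and t-DHEA livers (red), numbered by rat, with group mean and SD. The balance has the means -2.63 and -2.66, and the t-DHEA livers spread from -3.15 to -2.16.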

How the data were processed

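Liver mRNA of 3 t-PBS and 3 t-DHEA rats was compared; each sample was placed in its group from its title. The authors filtered the reads with Seqtk, mapped them to Rnor_6.0 with HISAT2 2.0.4 and counted fragments per gene with StringTie 1.3.0; the deposited counts are raw, and the deposited FPKM equal count over gene length and library total within a relative spread of 0.000969. Annotation release and strandedness are not given in the sources used here, so genes that overlap or are antisense to another are uncertain. All 12 value columns were used, and no library repeated another (chi-square over degrees of freedom of at least 15.3 for any 2 livers). The labels do not say more of the replicates than that they are separate samples, so p values measure the spread between these livers. The paper states that rats shared cages, and the labels do not give the cage of a liver. The p values therefore do not measure a spread between cages or between pools of donor faeces.

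The counts were filtered for low values (filterByExpr), scaled by TMM and compared by the quasi-likelihood test of edgeR 4.0.16 (R 4.3.3) with group as the only term, with Benjamini-Hochberg adjustment over 12210 genes. The study ran edgeR on FPKM, to which no count model was fitted here. The tests were checked on simulated counts. The 9 genes and the 17 gene lists were chosen with earlier results of these data known. Of 193 list entries, 188 matched a gene name; where a name had several rows, the row with most counts was used. Genes named were the 9 genes, each DEG of a list or else its 2 genes of lowest p, and the 3 genes most like Glul and Axin2; genes outside the rule are stated as such. Alternatives were DESeq2 1.42.0, RLE factors, library totals, other filters, limma 3.58.1 on log2(FPKM + 0.1) and with pseudocounts of 1 and 0.01, other fold-change thresholds, a replicate block and each liver left out.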

Additional observations from a re-analysis of the deposited data

How the results depend on the processing

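Of the 7 genes tested, the count meeting the criteria was 1 in place of 0, in each case Tbx3, with DESeq2, with RLE size factors, with at least 10 counts in every liver and with no filter for low counts. Leaving out 1 liver gave between 0 and 1; the gene was Tbx3 when t-DHEA rat 3 or t-PBS rat 3 was left out, and Oat without t-PBS rat 1. The count of all genes meeting the criteria was 275 at a fold-change above 1.5 and ran from 514 to 747 with 1 liver left out.

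The sign of Glul turned to -0.016 with library totals, to -0.033 with limma on log2(FPKM + 0.1), with or without a filter, and on log2(FPKM + 0.01), to -0.032 on log2(FPKM + 1), to -0.024 without t-PBS rat 1 and to -0.148 without t-DHEA rat 2. That of Rnf43 turned to -0.126 without t-DHEA rat 2, and that of Rhbg to -0.068 without the same rat and -0.045 without t-PBS rat 3. With 1 liver left out in turn, Glul ranged from -0.148 to 0.148, Rnf43 from -0.126 to 0.267 and Rhbg from -0.068 to 0.690. The cause was not tested. Axin2, Tbx3, Oat and Rgn kept their sign in all 16 alternative fits.

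Rats with the same number did not deviate together (correlations of -0.057, -0.059 and -0.055). Deviations centred on 3 livers a group cannot exclude a pairing, and the labels do not say what the numbers mean. With the replicate block, 539 genes and 0 of the 7 met the criteria. Under the replicate block, Rspo3 (-0.44), Fzd7 (-0.37) and Sds (1.17) did not meet the criteria, and Lrp6 (0.33) did. Of the Wnt ligands and R-spondins tested, between 0 and 2 were downregulated in the fits that filtered low counts, against 1 in the report. Without a filter, 3 of 15 were downregulated with edgeR and 4 of 15 with limma on log2(FPKM + 0.1). Depth limited Lgr5, Wnt9b, Wnt5a, Wnt7a and Lef1, which had at most 18 counts in a liver. With 3 livers a group, the 95% intervals of the 7 genes leave room for fold-changes past 1.2 in all of them in at least one direction.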

Other observations

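The t-DHEA rat 2 liver, in which Glul, Rnf43 and Tbx3 were highest, also held the highest values of Sp5, Nkd1 and Cyp2e1 and the lowest of Cps1 and Ass1; these genes were picked after their values were seen, and the liver was not tested as a group. Sp5, a Wnt-induced transcription factor gene, was at 3.22 CPM there and at 0.927 to 1.62 CPM in the other livers. Nkd1, which encodes a Wnt-induced feedback inhibitor, was at 6.36 CPM against 2.89 to 4.7 CPM, and Cyp2e1 at 3120 CPM against 1874 to 2440 CPM. The rest of the further Wnt target genes tested did not follow. Cd44 had its lowest value in this liver, at 1.95 CPM against 2.78 to 4.5 CPM. Notum was highest in another liver, as were Nkd2, Ccnd1 and Tcf7, also named after their values were seen. Cps1, carbamoyl phosphate synthetase of the urea cycle, was at 2461 CPM against 3407 to 4023 CPM, and Ass1 at 1240 CPM against 1531 to 1825 CPM. Of the 18 periportal genes, 8 (44.4%) had their lowest value in this liver, where 18.9% of all 12210 genes tested did, and 4 (22.2%), Tat among them, had their highest value there, against 18.5% of all genes tested. Of the 17 other pericentral genes, 4 (23.5%) were highest and 0 lowest in t-DHEA rat 2, while 6 (35.3%) were highest in t-PBS rat 3.

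In t-DHEA rat 3, 7 of the 18 periportal genes (38.9%) had their highest value and 0 their lowest, where 15.4% of all genes tested were highest. The gluconeogenic genes Pck1 and G6pc, named after their values were seen, were at 2334 and 946 CPM there, against 672 to 1471 CPM and 261 to 809 CPM in the other livers. Both livers belong to the same group, and what sets them apart was not tested.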
